A study of Homo sapiens with 4 samples.

Results

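The enzymes that extend, sialylate and fucosylate glycans were examined in GALNT3 knockdown clones of ovarian cancer cells. They were taken from a list of 51 genes, and every probe whose accession belongs to a listed gene was used. Probes on the array represented 48 of the 51 genes, by 68 probes, among 17240 genes named on the array. No probe was matched to GCNT4, B3GALT5 or FUT8. Of the 68 probes, 64 were kept for testing and covered 47 genes among 16882. The only FUT3 probe was not kept, and neither was 1 further probe each of B4GALT2, ST3GAL5 and FUT9.

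The cells were A2780s, an established human ovarian adenocarcinoma line that grows attached to the dish. Clones sh-G1 and sh-G2 were stably transfected with a plasmid for the same short hairpin RNA (shRNA) against GALNT3, and the ctrl clone was mock-transfected with the vector, pSilencer 4.1 puro. All 3 clones carried that vector and were isolated under puromycin. Some labels write the cell line of ctrl as A27803, and the arrays were taken to carry 1 ctrl clone. Each group was a single clone, so differences between clones that have nothing to do with GALNT3 cannot be told apart from those that do.

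Each labelled knockdown clone was hybridised against ctrl on 2 two-colour arrays with the dyes exchanged. The labelled knockdown clone carried Cy5 in replicate 1 and Cy3 in replicate 2. Values are log2 ratios of labelled knockdown over ctrl, so that 0 is no difference and 1.5-fold is 0.58 in size. All 4 arrays were scanned on 1 slide.

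Mucin-type O-glycans begin with an N-acetylgalactosamine that the GALNT enzymes attach to serine or threonine. C1GALT1, with its chaperone C1GALT1C1, adds galactose to make core 1, and the GCNT enzymes branch it to core 2. B3GNT and B4GALT enzymes lengthen the chains with alternating N-acetylglucosamine and galactose. Sialyltransferases (ST3GAL, ST6GAL, ST6GALNAC and ST8SIA) and fucosyltransferases (FUT) decorate or end them. Short, sialylated O-glycans are a known feature of carcinoma mucins.

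GALNT3, the targeted gene, had log2 ratios of -0.09 and 0.08 on the sh-G1 arrays and of 0.12 and -0.14 on the sh-G2 arrays. Its only probe lay at percentile 0.4 of brightness among the kept probes and was well above background in the knockdown channel of 2 arrays only. Its mean was -0.01 ± 0.04 (SE, n = 2 clones; limma adjusted p = 0.963). Each SE in the text is limma's moderated SE, drawn toward the spread of other probes. It is not the SE of the clone values alone. The probe was too dim to check the labels, and every direction given here rests on them.

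The arrays agreed unevenly. Over 39152 probes, the dye-swapped arrays of sh-G1 correlated at r = 0.32 and those of sh-G2 at r = 0.19. Arrays of the same dye orientation in different clones correlated at 0.61 and 0.73. Both kinds of pair share ctrl. The knockdown channel of sh-G2 replicate 2 had 87.7% of features well above background, against 95.1% to 96.8% for the other 3. That mark was also set for probes of CD3E, a T cell gene, on every array, so it does not show that a gene was expressed. Of 9 ovarian and epithelial markers, 2 fell in the mean of the clones, against 1.09% of all genes. They were the keratins KRT8 and KRT18 (limma adjusted p = 0.0316 and 0.0362 for their brightest probes). The means of the 9 ran from -2.32 to 0.04 with a median of -0.02, and 7 were below 0 and 2 above. For 6 of the 9, the 95% interval lay within 1.5-fold. Of 9 markers of other cell types 8 were measured, with means from -3.17 to 0.20. DCN, a stromal proteoglycan, was the low extreme, with a mean of -3.17 (limma adjusted p = 0.188) and a sh-G2 minus sh-G1 difference of 2.15 (limma adjusted p = 0.0314). The part of these markers in the results for the enzymes was not tested.

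Most of the enzymes differed little between the labelled knockdown clones and ctrl. By the brightest probe of each gene, the mean log2 ratio was under 0.25 in size for 43 of 47 enzymes (91.5%, against 88.6% of all genes). The median over the 47 was 0.02 (0.02 for clone sh-G1, 0.00846 for clone sh-G2), and the median over all genes was -0.00408. The mean lay above 0 for 29 enzymes and below 0 for 18. For 43 of the 47, the 95% interval of the mean lay within 1.5-fold either way (91.5%, against 92.1% of all genes). These counts include genes with only dim probes, for which a mean near 0 does not show an unchanged gene.

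No enzyme passed the limma test of the mean of the clones (0 of 47, adjusted p threshold 0.05), where 1.09% of all genes passed as lower and 0.231% as higher. The smallest adjusted p among the enzymes was 0.0879, for ST3GAL1. At an unadjusted p under 0.05, 3 enzymes were lower (B3GALT4, GCNT2 and ST3GAL1) against 11.5% of all genes, and 5 were higher (B3GALT2, B4GALT1, B4GALT4, B4GALT6 and FUT11) against 7.72%. The shares of the enzymes were 6.38% and 10.6%. B3GALT2 counted only by its dimmer probe, at brightness percentile 1.4 among the kept probes. The test set 2 clones against a ctrl whose own spread was not measured.

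**Figure D1:**
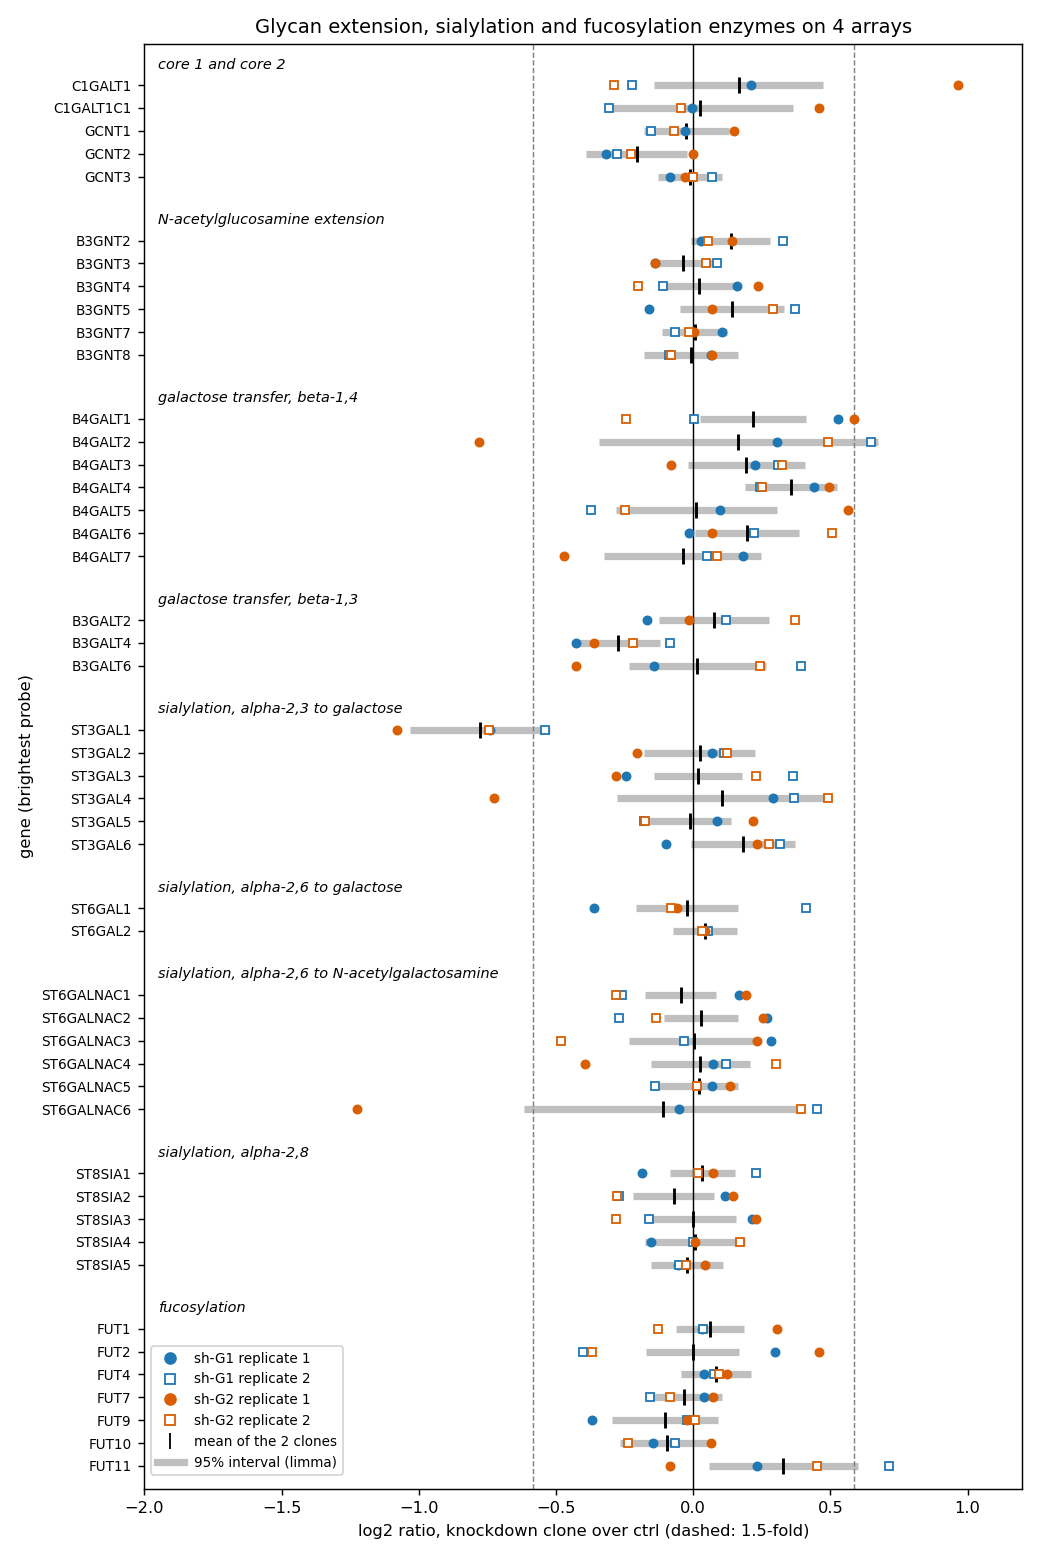
Log2 ratio of knockdown over ctrl (horizontal axis) for the brightest probe of each of 47 enzymes, grouped by role; points are the 4 arrays, black ticks the mean of the 2 clones and grey bars its 95% limma interval. ST3GAL1 lies on the left at a mean of -0.78, and 43 of the 47 intervals stay within the dashed lines at 1.5-fold.

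ST3GAL1 stood out from the other enzymes. It adds sialic acid in alpha-2,3 linkage to the galactose of core 1, which caps the chain. Its brighter probe (A_23_P31893) had log2 ratios of -0.74 and -0.54 on the sh-G1 arrays and of -1.08 and -0.74 on the sh-G2 arrays. Its dimmer probe (A_23_P31896) had -1.21 and -0.83, and -1.83 and -1.74. Both probes were below ctrl on all 4 arrays. Clones sh-G1 and sh-G2 averaged -0.64 and -0.91 by the brighter probe and -1.02 and -1.79 by the dimmer. The brighter probe had a mean of -0.78 ± 0.09 (moderated SE, n = 2 clones), or 0.584 of ctrl (limma adjusted p = 0.0879). The dimmer probe had a mean of -1.40 ± 0.21, or 0.378 of ctrl (limma adjusted p = 0.139). Neither passed the test on all arrays. With any single array left out ST3GAL1 passed by at least 1 probe, and so did 1.5% to 4.29% of all genes, in fits where the dyes no longer balanced in 1 clone. In bulk RNA, fewer cells with the transcript and less transcript per cell cannot be told apart.

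The ctrl and knockdown signals behind these ratios did not overlap. They hold the same ratios and are not further evidence, and the share of all probes without overlap is not given. On the log2 scale, after normalisation between arrays, the brighter probe had 9.68 to 9.86 in the 4 ctrl channels. It had 9.08 and 9.14 in the sh-G1 channels and 8.78 and 8.9995 in the sh-G2 channels. The dimmer probe had 8.45 to 8.93 in ctrl, 7.62 on both sh-G1 arrays, and 7.09 and 6.95 in the sh-G2 channels. For both probes every sh-G2 channel was below every sh-G1 channel. The 4 ctrl values are channels of 1 clone and not replicates.

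ST3GAL1 was lower in sh-G2 than in sh-G1. The sh-G2 minus sh-G1 difference was -0.27 ± 0.10 (SE over the 4 arrays) for the brighter probe and -0.77 ± 0.11 for the dimmer. Neither passed the limma test of the clone difference (adjusted p = 0.664 and 0.148), in which p covers the spread between arrays only.

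ST3GAL1 was also the only enzyme at least 1.5-fold changed on all 4 arrays, counting a gene where 1 of its kept probes reached that level. It made 1 of 47 enzymes against 1.45% of all genes in the lower direction, and 0 enzymes against 0.391% in the higher. The dimmer probe carried this count. Counted by the brightest probe alone no enzyme remained, against 1.29% of all genes, because the brighter probe reached -0.54 on sh-G1 replicate 2. The rule that 1 probe is enough was settled after the values were seen, and so was the count by the brightest probe. On both arrays of sh-G1, ST3GAL1 was the only enzyme past 1.5-fold (2.6% of all genes), and the same held for sh-G2 (3.08% of all genes).

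**Figure D2:**
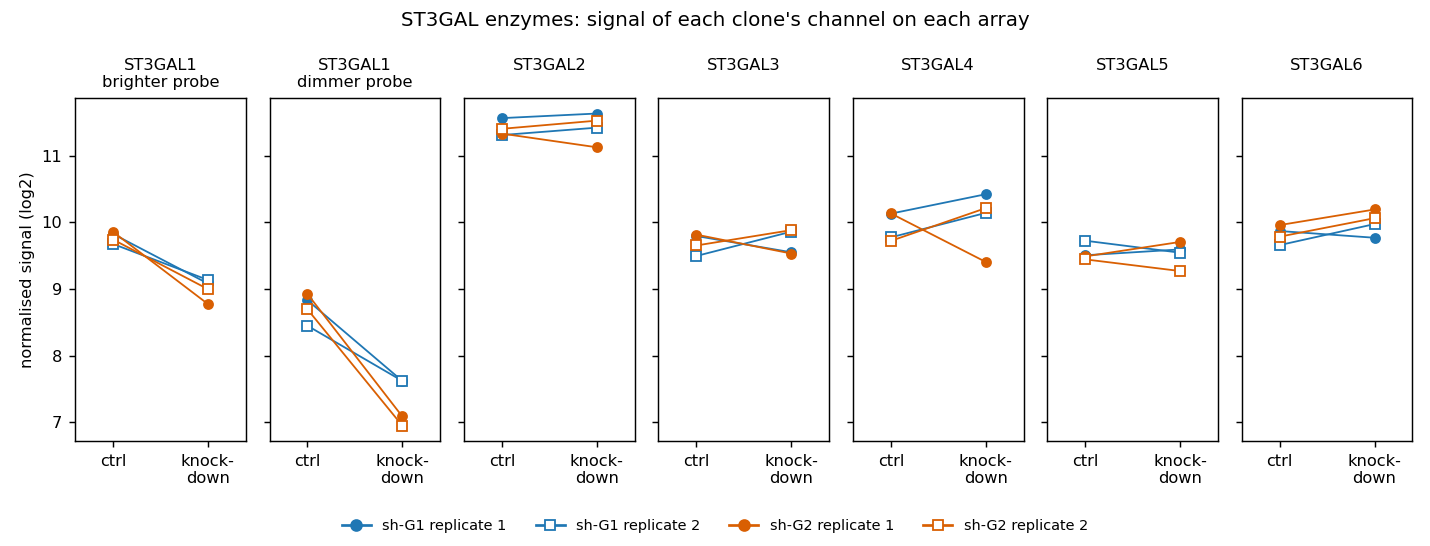
Normalised log2 signal (vertical axis) of the ctrl and knockdown channels on each of the 4 arrays for the ST3GAL enzymes, with lines joining the channels of 1 array. Both ST3GAL1 probes lie below ctrl in the knockdown channel of all 4 arrays, at 8.78 to 9.14 for the brighter probe, whereas the lines of the other 5 genes run in both directions; levels of different probes cannot be compared.

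The other 5 enzymes of alpha-2,3 sialylation did not share this pattern. Their means ranged from -0.01 for ST3GAL5, which makes the ganglioside GM3, to 0.18 for ST3GAL6. ST3GAL2, which like ST3GAL1 acts on galactose of core 1, had ratios of 0.07, 0.11, -0.20 and 0.12 and a mean of 0.02 ± 0.07 (SE, n = 2 clones). Its 95% interval ran from -0.18 to 0.23. ST3GAL4, which acts on N-acetyllactosamine chains, read 0.29 and 0.37 in sh-G1 but -0.73 and 0.49 in sh-G2, so that the dye-swapped arrays of sh-G2 pointed opposite ways.

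The core 1 and core 2 enzymes described here had means from -0.03 for GCNT1 to 0.17 for C1GALT1. C1GALT1, the core 1 galactosyltransferase, had ratios of 0.21 and -0.22 in sh-G1 and of 0.96 and -0.29 in sh-G2. It was above ctrl whenever the knockdown clone carried Cy5 and below whenever it carried Cy3. Its chaperone C1GALT1C1 had a mean of 0.03 ± 0.11 (SE, n = 2 clones), and the core 2 branching enzymes GCNT1 and GCNT3 had means of -0.03 and -0.01. Both of these were among the dimmest probes, at brightness percentiles 1.7 and 2.5.

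GCNT2, which makes the branched I antigen rather than core 2, had ratios of -0.32, -0.28, -0.00221 and -0.23. All 4 were below 0, and the mean was -0.21 ± 0.06 (SE, n = 2 clones; limma adjusted p = 0.343).

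The beta-1,4-galactosyltransferases lay mostly above ctrl. Their median was 0.19, the highest of the 9 role groups, and 6 of the 7 had a mean above 0 (48% of all genes did). B4GALT4 had the largest increase in the mean among the enzymes and ratios of 0.44 and 0.24 in sh-G1 and of 0.49 and 0.25 in sh-G2. Its mean was 0.36 ± 0.06 (SE, n = 2 clones), or 1.28 times ctrl (limma adjusted p = 0.154). The interval of 0.19 to 0.53 stayed under 1.5-fold.

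B4GALT1, the subunit of lactose synthase and the main galactosyltransferase of N-glycans, had ratios of 0.53, 0.00234, 0.59 and -0.24 by its brighter probe and a mean of 0.22. Its dimmer probe had a mean of 0.00566. B4GALT6, a lactosylceramide synthase, had -0.01, 0.22, 0.07 and 0.51 and a mean of 0.20, and its dimmer probe had a mean of -0.00565. B4GALT3 had 0.23, 0.31, -0.08 and 0.32 and a mean of 0.19. Only B4GALT4 was above ctrl on all 4 arrays, and for B4GALT1 and B4GALT6 the dimmer probe had a mean near 0. B4GALT2 read 0.31 and 0.65 in sh-G1 and -0.78 and 0.49 in sh-G2, with a mean of 0.17 ± 0.17 (SE, n = 2 clones). B4GALT5 had a mean of 0.01, and B4GALT7, which builds the proteoglycan linker, had a mean of -0.04.

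Among the beta-1,3-galactosyltransferases, B3GALT4 was below ctrl. It makes the ganglioside GM1 from GM2. Its brighter probe had ratios of -0.43, -0.08, -0.36 and -0.22 and a mean of -0.27 ± 0.05 (SE, n = 2 clones; limma adjusted p = 0.199). Its dimmer probe had -0.67, 0.04, -0.67 and 0.05 and a mean of -0.31 ± 0.05 (limma adjusted p = 0.151). The dimmer probe was low only where the knockdown clone carried Cy5. B3GALT6, another enzyme of the proteoglycan linker, had a mean of 0.02. B3GALT2 had means of 0.08 by its brighter probe and 0.21 by its dimmer one, which lay at brightness percentile 1.4.

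The 6 B3GNT enzymes, which add the N-acetylglucosamine of extended chains, had means from -0.04 for B3GNT3 to 0.14 for B3GNT5. B3GNT2, the main poly-N-acetyllactosamine synthase, was above ctrl on all 4 arrays, with ratios of 0.03, 0.33, 0.14 and 0.05. All 6 of their intervals lay within 1.5-fold.

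The alpha-2,6 and alpha-2,8 sialyltransferases were near ctrl in the mean. ST6GAL1, which sialylates N-glycans, had -0.02 ± 0.06 (SE, n = 2 clones) and ST6GAL2 had 0.04 ± 0.04. ST6GALNAC1, which makes sialyl-Tn from the unextended N-acetylgalactosamine, had ratios of 0.17, -0.26, 0.19 and -0.28 and a mean of -0.05 ± 0.04. Its sign followed the dye on every array. The 5 ST8SIA enzymes, which build disialic and polysialic acid, had means from -0.07 for ST8SIA2 to 0.03 for ST8SIA1. The only probes of ST8SIA1 and ST6GALNAC5 were among the dimmest, at brightness percentiles 1 and 2.5. Their means near 0 do not show that these genes were unchanged.

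ST6GALNAC6, which sialylates gangliosides, had ratios of -0.05 and 0.45 in sh-G1 and of -1.23 and 0.39 in sh-G2. The value on sh-G2 replicate 1 was the lowest of any enzyme on any array by the brightest probes. Its mean was -0.11 ± 0.17 (SE, n = 2 clones), and without sh-G2 replicate 1 it was 0.30.

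Fucosyltransferases ranged from -0.10 to 0.33 in the mean. FUT11, now named POFUT4, had ratios of 0.23 and 0.71 in sh-G1 and of -0.08 and 0.45 in sh-G2. It was above ctrl on 3 of 4 arrays, with a mean of 0.33 ± 0.09 (SE, n = 2 clones; limma adjusted p = 0.313). FUT10, now POFUT3, had a mean of -0.10. FUT9, which makes Lewis x, had ratios of -0.37, -0.02, -0.02 and 0.0050 and a mean of -0.10 that rested on sh-G1 replicate 1. FUT4, another Lewis x enzyme, had ratios of 0.04 to 0.12 by its brighter probe and a mean of -0.02 by its dimmer one. FUT1 and FUT2, the H antigen enzymes, had means of 0.06 and -0.00224, and FUT7, of sialyl Lewis x, had -0.03. The only FUT1 probe was dim, at brightness percentile 7.5.

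Counted over all kept probes, 4 enzymes were below ctrl on all 4 arrays by at least 1 probe (B3GALT4, FUT9, GCNT2 and ST3GAL1), or 8.51% against 12.9% of all genes. Another 6 were above ctrl on all 4 arrays (B3GALT2, B3GNT2, B4GALT4, FUT4, ST6GAL2 and ST8SIA4), or 12.8% against 8.97%. B3GALT2 and FUT9 counted only by dim probes, at brightness percentiles 1.4 and 1.1. Of 17 enzymes with 2 kept probes, the probe means had opposite signs for B4GALT6, FUT4, ST3GAL3, ST8SIA2 and ST8SIA5, and the opposed means were at most 0.20 in size. By the brighter and the dimmer probe, the means were 0.02 and -0.03 for ST3GAL3, -0.07 and 0.00563 for ST8SIA2, and -0.02 and 0.05 for ST8SIA5. The gap between probes exceeded 0.5 for ST3GAL1 alone, at 0.63.

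The dye part of the ratios was large beside the differences from ctrl. It was taken as the distance of the replicate 1 mean, after turning, from the midpoint of the replicate 1 and replicate 2 means. Dye orientation went with replicate number in both clones, so dye cannot be told apart here from other differences between the replicates. The dye part exceeded the knockdown mean in size for 33 of 47 enzymes (70.2%, against 64.5% of all genes). For ST3GAL1 the dye part was -0.14 and -0.12 by its 2 probes, against means of -0.78 and -1.40, and for B4GALT4 it was 0.11 against 0.36. At least 1 array was past 1.5-fold for 7 of the 47 (14.9%, against 15.6% of all genes). By array, 4 enzymes were past it as lower and 2 as higher on sh-G2 replicate 1, and no more than 2 in all on any other array. All genes also spread most on sh-G2 replicate 1, with an SD of 0.42 against 0.33 to 0.36 on the other arrays. The share of all genes past 1.5-fold on a single array is not given, so these counts are not a result about the enzymes.

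**Figure D3:**
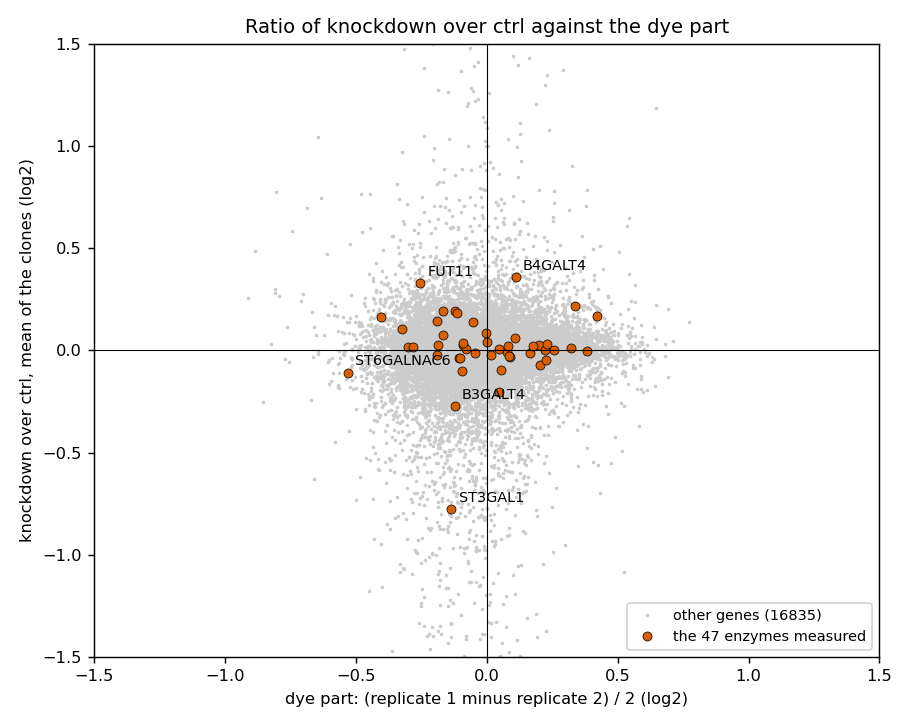
Mean log2 ratio of knockdown over ctrl (vertical axis) against the dye part (horizontal axis, log2) for the 47 enzymes (orange) and the other genes (grey); 101 genes lie outside the axes. The dye part exceeded the mean in size for 33 of the 47 enzymes, and ST3GAL1 had the lowest mean among them all, at -0.78.

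The clones were compared directly for every enzyme. None passed the limma test of the clone difference (0 of 47, against 0.207% of all genes, smallest adjusted p = 0.148). At an unadjusted p under 0.05, 4 enzymes differed (B4GALT2, C1GALT1C1, FUT11 and ST3GAL1), or 8.51% against 9.02% of all genes. B4GALT2 had the largest difference by a brightest probe that reached this level, at -0.62 ± 0.24 (SE over the 4 arrays, sh-G2 minus sh-G1). C1GALT1C1 differed by 0.36 ± 0.14 and FUT11 by -0.29 ± 0.10, with limma adjusted p = 0.667 and 0.628.

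Other genes of glycan synthesis, removal and binding were counted beside the enzymes. Of 79 listed, 78 were measured. In the mean of the clones 2 of the 78 fell and 0 rose (limma adjusted p), against 1.09% and 0.231% of all genes. At an unadjusted p under 0.05, 14 of the 78 were lower and 4 higher, against 11.5% and 7.72% of all genes. Their median was -0.01.

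B3GALNT1, which makes globoside, fell by 1.02 on the log2 scale by its dimmer probe (SE 0.04, n = 2 clones; limma adjusted p = 0.0215). That probe read -1.22, -0.75, -1.10 and -0.99, past 1.5-fold on all 4 arrays, and the brighter probe had a mean of -0.81 (limma adjusted p = 0.106). CHST6, a sulfotransferase of keratan sulfate, read -1.02, -0.49, -1.004 and -0.49 and fell by 0.75 on the log2 scale (limma adjusted p = 0.0316). GFPT2, an entry enzyme of the hexosamine pathway, was past 1.5-fold on all 4 arrays (-0.89, -0.59, -0.80 and -0.99), with a mean of -0.82 (limma adjusted p = 0.0580).

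MGAT3, which adds bisecting N-acetylglucosamine, and LGALS3, a galactose-binding lectin, were chosen once their values had been looked at. MGAT3 had a mean of -1.17 by its brighter probe (limma adjusted p = 0.274) and of -0.03 by its dimmer one. LGALS3 had a mean of -0.97 (limma adjusted p = 0.189), with ratios from -1.34 to -0.57. The 6 genes of sialic acid supply, which provide the donor of ST3GAL1, had means from -0.10 to 0.06. The 6 genes of fucose supply had means from -0.16 to 0.13, and neither supply list held a called gene.

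**Figure D4:**
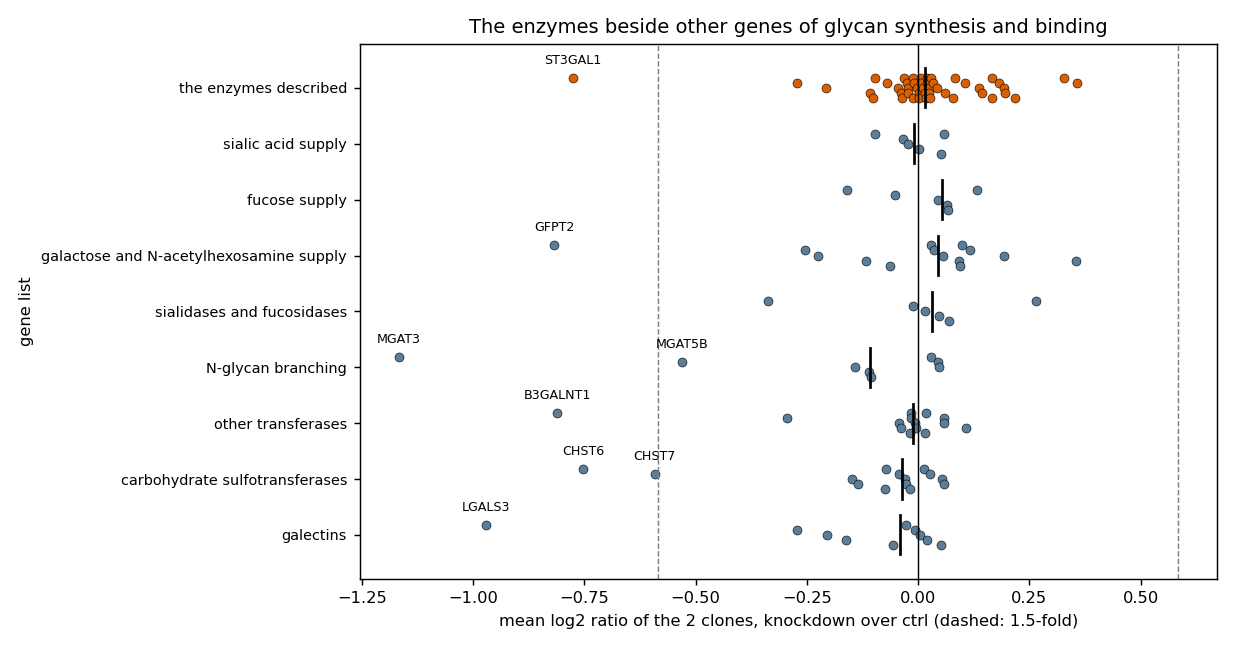
Mean log2 ratio of the 2 clones over ctrl (horizontal axis) for the brightest probe of each gene in 9 lists (rows); vertical bars are list medians and names mark means over 0.5 in size. The medians lie near 0, from -0.11 for N-glycan branching to 0.05 for fucose supply, and the named genes all lie below ctrl.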

How the data were processed

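Total RNA of the clones was labelled and hybridised to Agilent Whole Human Genome arrays, whose file headers name the build hg18. The authors extracted each spot's median intensity and median local background intensity with Agilent Feature Extraction (version 8.5.1.1 per the submitters' processing notes, 10.5.1.1 per the file headers). The deposited log10 ratio of Cy5 over Cy3, from the software's dye-normalised signals, and the deposited log10 values of the series matrix served as alternatives only. In the matrix, the column of sh-G1 replicate 2 held another quantity and was left out. How the authors normalised the arrays for their gene lists was not given in the sources used here.

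Intensities were corrected with normexp (offset 50) and normalised by loess within arrays in limma 3.58.1 (R 4.3.3), with control spots at weight 0. Spots with an outlier mark were left out, repeat spots of a probe were averaged after the dye swaps had been turned. A probe entered the tests when no array had both channels short of the mark for well above background, which left 39152 of the 40905 with a value on all 4. Of 41000 probes, 25398 were named by accession through a RefSeq gene table of GRCh38.p14, used for names only.

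The 2 arrays of a clone counted as 1 replicate, since nothing says they hold separate extracts. In limma (eBayes with trend), the average over both clones was set against 0, and the clone difference was fitted on 4 arrays with a term for dye. P-values were adjusted by Benjamini-Hochberg over all kept probes. Scripts were tested on simulated data. Precision is limited by the number of arrays. The genes and lists were chosen with earlier results of these data known. Each enzyme was described by its brightest kept probe, with its other probe where the sign differed or the gap exceeded 0.5, and array values are given for the 5 largest means in each direction and for enzymes past a test or 1.5-fold in a clone. Array values of other enzymes, and the other probes of B4GALT1, B3GALT2 and B3GALT4, were added after they were seen, as was the rule that 1 kept probe past a threshold counts its gene. Genes of the other lists were named if past a test or 1.5-fold on all 4 arrays. Alternatives were the offset, background, normalisation, filter, outlier marks, probe rule, fold threshold, dye term, error model and each array or clone left out.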

Additional observations from a re-analysis of the deposited data

How the results depend on the processing

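No enzyme passed the test of the mean of the clones, but 1 (ST3GAL1) did by the series matrix values of 3 arrays, 1 to 2 did with an array left out (ST3GAL1 each time, and B4GALT2 without sh-G2 replicate 1), and 3 (B3GALT4, B4GALT4 and ST3GAL1) did on 4 arrays with clone as a random block, where 9.75% of all genes passed and the consensus correlation was -0.66. With ctrl given the same spread as the clones, 0 enzymes and 0 genes passed. The count of enzymes past 1.5-fold on all 4 arrays went from 1 to 0 at 2-fold and to 0 by the brightest probe alone, and stayed at 1 with any array left out. For both arrays of sh-G1 it went from 1 to 4 by the series matrix, to 0 at 2-fold, to 0 by the brightest probe, and to 1 to 3 with an array left out. For sh-G2 it went from 1 to 2 by the software's own ratio, to 2 by the series matrix, and to 1 to 7 with an array left out, 7 being without sh-G2 replicate 2. With an array of the clone left out, the count rests on a single array of that clone. The same holds for sh-G1 by the series matrix, where sh-G1 replicate 2 was left out. The cause was not tested for the others. No share of all genes is given beside the counts of sh-G1 and sh-G2 at these settings. They cannot be read as a result about the enzymes.

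The median of the enzymes was -0.00633 with median centring, 0.0326 by the software's ratio, 0.0540 by the series matrix, and -0.00449 to 0.0408 with an array left out. GALNT3 turned sign without background correction (0.0254), with median centring (0.160) and by the software's ratio (0.115), and ranged from -0.0755 to 0.0593 with an array left out. FUT9 turned to 0.0433 by the series matrix. ST6GALNAC6 turned to 0.199 without clone sh-G2 and ranged from -0.513 to 0.295 with an array left out. ST3GAL1 stayed below 0 under every alternative (-1.09 to -0.64). Its limma adjusted p, 0.0879, ranged from 0.00219 with clone as a random block to 0.537 with ctrl given the same spread as the clones. The random-block fit took the 4 arrays rather than the 2 clones as its values, with a consensus correlation of -0.66. As 9.75% of all genes passed it, its p is not a limit on the evidence. The brightest-probe counts, like the rule that 1 probe is enough, were chosen after seeing the data.

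No paired analysis was possible because the replicate number of an array only gives its dye orientation. Not run were probes added by gene name, which the array files do not hold, the clone difference with an array left out, and tests with a clone left out, which leave 1 sample. Dimness limits GALNT3, GCNT1, GCNT3, ST8SIA1, ST6GALNAC5 and other probes near background.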
